A study of Mus musculus with 2 samples.

Results

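The genes Mir137, Mir153, Mir7-1, Mir7-2 and Mir7b are 5 of the 1973 microRNA genes that were counted in small RNA libraries of mouse embryonic forebrain. They were taken by name: an Ensembl identifier in the count tables was matched to its symbol in the GENCODE mouse annotation, by a rule that uses names and no measured value. All 5 had a row in both tables. The study held 1 group and no contrast. Its 2 replicates were separate pools of forebrains from healthy embryos at day 12.5 of development, of strain B6NCrl and of both sexes, with 120 embryos in replicate 1 and 68 in replicate 2. No treatment or genetic change is named in the labels. RNA under 30 nt was sequenced, and each pool gave 1 library, so the spread between replicates holds both the tissue and its handling.

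MicroRNAs (miRNAs) are cut from hairpin precursors into RNAs that pair with messenger RNAs through bases 2 to 8, the seed, and lower their output. miR-137 acts in neural progenitors and young neurons, where it bears on the balance of division and differentiation and on dendrite growth. miR-153 limits genes of synaptic vesicle release and is carried by Ptprn2, a gene for a membrane protein of dense-core secretory vesicles. miR-7 is typical of neuroendocrine cells of the hypothalamus, pituitary and pancreatic islets. In the forebrain it is known to limit the progenitor factor Pax6, and the circular RNA Cdr1as binds it.

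The mature sequences are shown because they decide which reads could be credited to which gene. They are from RefSeq on GRCm38.p6, where all 5 genes were found, and are written 5′ to 3′ with the seed in capitals. For miR-137 and miR-153 the 3p strand is the usual active one, and for miR-7 the 5p strand.
miR-137-3p: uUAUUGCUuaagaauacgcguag
miR-153-3p: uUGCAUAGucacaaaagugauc
miR-7a-5p: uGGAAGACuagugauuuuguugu
miR-7b-5p: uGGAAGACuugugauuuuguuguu
miR-7a-1-3p: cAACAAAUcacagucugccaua
miR-7a-2-3p: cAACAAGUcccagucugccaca
miR-7b-3p: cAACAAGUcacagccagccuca

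Of these genes, only the miR-7 genes shared a seed with one another. The same miR-7a-5p, of 23 bases, is encoded by both Mir7-1 and Mir7-2. miR-7b-5p, of 24 bases, has the same seed and differs from miR-7a-5p by A10U, counted from 1 at the 5′ end, and by 1 added base at its 3′ end. The 3p strands set the copies apart. Against miR-7a-1-3p, miR-7a-2-3p carries A7G, A10C and U21C, and miR-7b-3p carries A7G, U14C, U16A, A20U and U21C. With A7G in the seed, miR-7a-2-3p and miR-7b-3p share the 3p seed that miR-7a-1-3p lacks. No other mature miRNA of the RefSeq table had the seed of miR-137-3p, miR-153-3p or miR-7.

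The 3 miR-7 hairpins show how far the copies run alike. Capitals mark the longest stretch that Mir7-1 and Mir7-2 have in common, and in Mir7b the longest stretch it has in common with either.
Mir7-1: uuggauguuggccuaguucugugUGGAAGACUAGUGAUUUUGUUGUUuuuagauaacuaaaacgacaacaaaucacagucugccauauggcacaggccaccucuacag
Mir7-2: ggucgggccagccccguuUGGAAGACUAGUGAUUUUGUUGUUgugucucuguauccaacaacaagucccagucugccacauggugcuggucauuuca
Mir7b: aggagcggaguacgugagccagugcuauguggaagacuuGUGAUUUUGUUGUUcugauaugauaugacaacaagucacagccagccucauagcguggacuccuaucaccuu

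Mir7-1 and Mir7-2 share 24 bases, which are the whole of miR-7a-5p and the 1 base after it. The base before miR-7a-5p already differs. Mir7b shares 14 bases with each of them. Among all annotated mouse hairpins, on either strand, the longest stretch in common was 11 bases for Mir137 and 10 bases for Mir153. At a minimum of 20 shared bases, 2 of the 5 hairpins shared a stretch, against 50.3% of 1894 counted genes with a known hairpin. The authors' tables kept reads that match several places in a row of their own, 4213961 in replicate 1 and 4224434 in replicate 2, beside 4333194 and 4397107 reads assigned to genes. A read without mismatches that holds miR-7a-5p and no more matches both copies and could only fall in that row. Reads without mismatches that were credited to Mir7-1 or Mir7-2 therefore had to come from outside the shared bases or run past them, and the tables do not say which. The levels of these 2 genes leave out reads without mismatches that lie wholly within the shared 24 bases. These include miR-7a-5p of its exact length and shorter forms of it. How much was left out was not analysed here. Matches elsewhere in the genome were not searched.

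**Figure D1:**
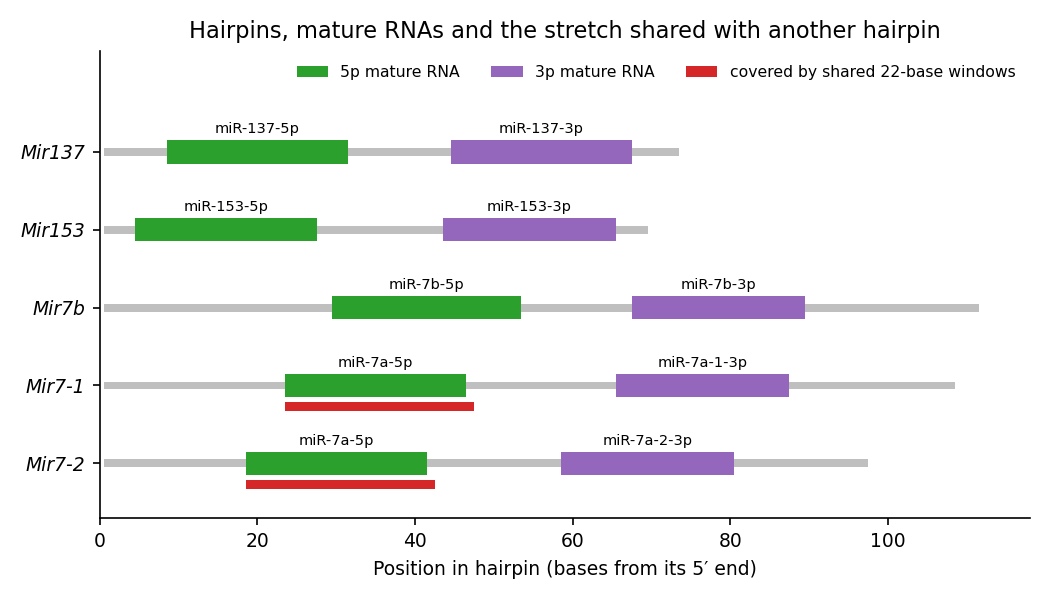
Hairpins of the 5 genes, drawn to scale in bases from the 5′ end, with the 5p (green) and 3p (purple) mature RNAs. Red bars mark bases covered by windows of 22 bases that also occur in another annotated hairpin. They lie under miR-7a-5p in Mir7-1 and Mir7-2, where 3 of 87 and 3 of 76 windows were shared, and Mir137, Mir153 and Mir7b had none.

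The genes lie on separate chromosomes and in different settings. Mir137 (ENSMUSG00000065569, mm10 chromosome 3, 118433857 to 118433929, plus strand) overlaps an exon of the non-coding gene Gm26871 in each of the 2 of its 6 transcripts that span it, 3533 bases from the host's start. Its version in the tables differs from that in GENCODE M21, so the counted model may have had other ends. Mir153 (ENSMUSG00000065538, chromosome 12, 117250817 to 117250885, plus strand) lies in an intron of Ptprn2, 2116 and 2717 bases from the nearest exons. The hairpin is 765097 bases into a gene of 791130 bases, and it was the single miRNA annotated there on that strand. An antisense gene, Gm5441, covers Mir153 with an intron on the other strand.

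Mir7-1 (ENSMUSG00000065434, chromosome 13, 58392779 to 58392886, minus strand) lies in an intron of Hnrnpk, which encodes a widely expressed RNA-binding protein, 302 and 309 bases from the nearest exons. Mir7-2 (ENSMUSG00000065609, chromosome 7, 78888277 to 78888373, plus strand) and Mir7b (ENSMUSG00000065491, chromosome 17, 56242988 to 56243098, plus strand) overlap no other annotated gene. The nearest protein-coding genes are Aen, 7481 bases from Mir7-2, and Fem1a, 13712 bases from Mir7b. The hosts' own RNA was not measured in these libraries, so levels of host and miRNA cannot be set side by side.

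All 5 genes were read, and Mir137 was the highest. Levels are counts per 1000000 gene-strand reads that the tables credit to miRNA genes (CPM), where 3 counts are worth 0.692 and 0.682 CPM in the 2 libraries. CPM are not divided by length, since the mature RNAs of the 5 genes are all of 22 to 24 bases. Ranges after a value are exact Poisson 95% intervals, which cover counting error only.

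Mir137 had 22218 reads in replicate 1, or 5127 CPM (5060 to 5195), and 23245 reads in replicate 2, or 5286 CPM (5219 to 5355). Mir153 had 14318 reads, or 3304 CPM (3250 to 3359), in replicate 1 and 9896 reads, or 2251 CPM (2206 to 2295), in replicate 2. Mir137 thus stood nearly alike in the pools, whereas Mir153 was lower in the second pool, with intervals that do not overlap. Mir7b had 6089 reads, or 1405 CPM (1370 to 1441), in replicate 1 and 4903 reads, or 1115 CPM (1084 to 1147), in replicate 2, and its intervals did not overlap either. Mir7-1 had 2801 reads, or 646.4 CPM (622.7 to 670.8), and 2917 reads, or 663.4 CPM (639.5 to 687.9). Mir7-2 had 1324 reads, or 305.5 CPM (289.3 to 322.5), and 1340 reads, or 304.7 CPM (288.6 to 321.5). The pools overlapped within counting error for both genes that encode miR-7a.

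**Figure D2:**
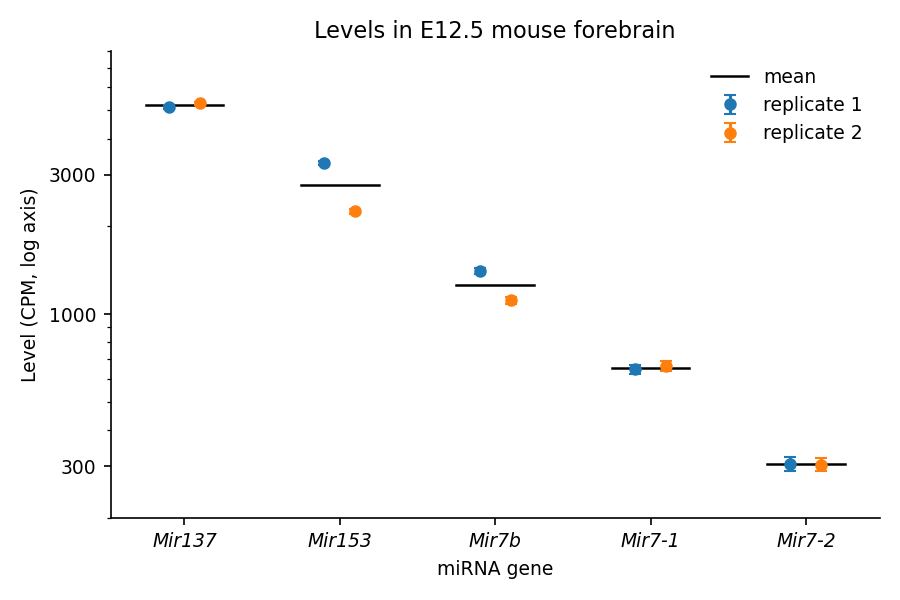
Level of each gene in CPM on a log axis, by replicate. Points are single libraries with exact Poisson 95% intervals and bars are the means of 2 replicates. The order is the same in both libraries, from Mir137 at 5127 and 5286 CPM to Mir7-2 at 305.5 and 304.7 CPM, and the replicates stand apart for Mir153 and Mir7b.

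The means were 5207 ± 112.5 CPM for Mir137 (SD, n = 2), 2777 ± 745.1 CPM for Mir153, 1260 ± 205.2 CPM for Mir7b, 654.9 ± 12.01 CPM for Mir7-1 and 305.1 ± 0.567 CPM for Mir7-2. By mean level they took places 44, 64, 92, 126 and 167 among the 1973 genes. These places hold for assigned reads only, since genes that share bases with another hairpin may lose reads from their counts. The median of the 321 genes with at least 10 CPM was 340.3 CPM, below 4 of the 5 genes and above Mir7-2. No neighbours in this order overlapped between any of their libraries. Mir137 exceeded Mir153 1.55-fold in replicate 1 and 2.35-fold in replicate 2, the widest change in spacing between the pools. Mir153 exceeded Mir7b 2.35-fold and 2.02-fold, Mir7b exceeded Mir7-1 2.17-fold and 1.68-fold, and Mir7-1 exceeded Mir7-2 2.12-fold and 2.18-fold. The order of Mir7-1 and Mir7-2 against the other genes holds for assigned reads only, given the miR-7a-5p reads left out. Per 100 bases of hairpin the order was the same, from 7133 CPM for Mir137 to 314.6 CPM for Mir7-2.

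The 5 genes held 1.08% of assigned reads in replicate 1 and 0.962% in replicate 2, a mean of 1.02% ± 0.0826 (SD, n = 2). Mir137 made up 47.5% of their reads in replicate 1 and 55.0% in replicate 2. The 3 miR-7 genes summed to 2357 CPM and 2083 CPM, under the level of Mir153 alone in replicate 1 and in replicate 2. Mir7b held 59.6% of the reads credited to miR-7 genes in replicate 1 (exact Clopper-Pearson 95% interval 58.7% to 60.6%) and 53.5% in replicate 2 (52.5% to 54.6%). Between Mir7-1 and Mir7-2 the division did not move beyond counting error, with 67.9% (66.5% to 69.3%) and 68.5% (67.1% to 69.9%) in Mir7-1. Among assigned reads the shift within the family therefore lay in Mir7b. Reads of miR-7a-5p that lie wholly within the bases shared by Mir7-1 and Mir7-2 are left out, so a shift of the whole family cannot be placed.

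Reads opposite to these genes were all but missing. Mir137 had 1 in replicate 1 and 0 in replicate 2, and the other genes had 0 in both, although Mir153 lies opposite to an annotated antisense gene. Over all genes, 2.69% and 2.78% of assigned reads were on the opposite strand. The one annotated miRNA gene within 10 kb of any of the 5 was Gm24155, with 791 bases between it and Mir137 and on the same strand, in the same host Gm26871. It had 4 reads, or 0.923 CPM, in replicate 1 and 0 in replicate 2, where 3 counts set an upper limit of 0.682 CPM. Mir137 and Gm24155 thus differed widely in reads although 1 annotated non-coding gene spans both.

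Replicate ratios split the 5 genes. Mir153 was lower in replicate 2 by -0.55 on the log2 scale (CPM + 1), and Mir7b by -0.33. Mir137 stood at 0.04, Mir7-1 at 0.04 (-0.0057 with TMM scaling) and Mir7-2 at -0.0038. The median of the 5 was -0.0038, against 0.04 over all 511 genes tested. Two-sided Fisher's exact tests of gene reads against the other assigned reads, with Benjamini-Hochberg adjustment over the 511 genes, compare these 2 libraries and not conditions. They passed for 3 of 5 genes, against 32.7% of all genes tested. Mir153 (adjusted p = 1.2e-191) and Mir7b (adjusted p = 1.3e-32) were 2 of 5 that passed as lower in replicate 2, against 12.5% of all genes. Mir137 passed as 3.10% higher (adjusted p = 0.0041 by Fisher's exact test), 1 of 5 against 20.2% of all genes. That call was lost with TMM scaling, where its ratio was 0.00095, with DESeq2 size factors (adjusted p = 0.245 by Fisher's exact test), and with Mir99a, the most abundant gene, left out of the library size. Over the alternatives its adjusted p by Fisher's exact test ran from 0.0026 to 1.0. Mir7-1 (adjusted p = 0.514) and Mir7-2 (adjusted p = 1.0) did not pass Fisher's exact test. By the same test, 0 of 5 genes passed with a difference of at least 2-fold, against 2.74% of all genes. The fold between pools was 1.47 for Mir153 and 1.26 for Mir7b.

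Counting error alone makes these tests narrow, so the ratios were also set beside the spread of all genes between the libraries. The common dispersion from edgeR gave a coefficient of variation of 16.4% over 403 genes, which corresponds to an SD of 0.33 for a log2 ratio of 2 libraries. Mir153 lay at 1.65 of these SDs, Mir7b at 0.996, and Mir137, Mir7-1 and Mir7-2 at 0.132, 0.112 and 0.0113. Of the 321 genes with at least 10 CPM, 26 (8.10%) had a larger absolute ratio than Mir153 and 63 (19.6%) a larger one than Mir7b. A larger ratio than that of Mir137 was found in 266, than that of Mir7-1 in 275 and than that of Mir7-2 in 314. These 3 were thus among the steadier of the 321 genes, for Mir7-1 and Mir7-2 in assigned reads only. Counting error alone widens the ratios of genes with few reads, and no comparison with genes of like level was made. The median absolute log2 ratio was 0.15.

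**Figure D3:**
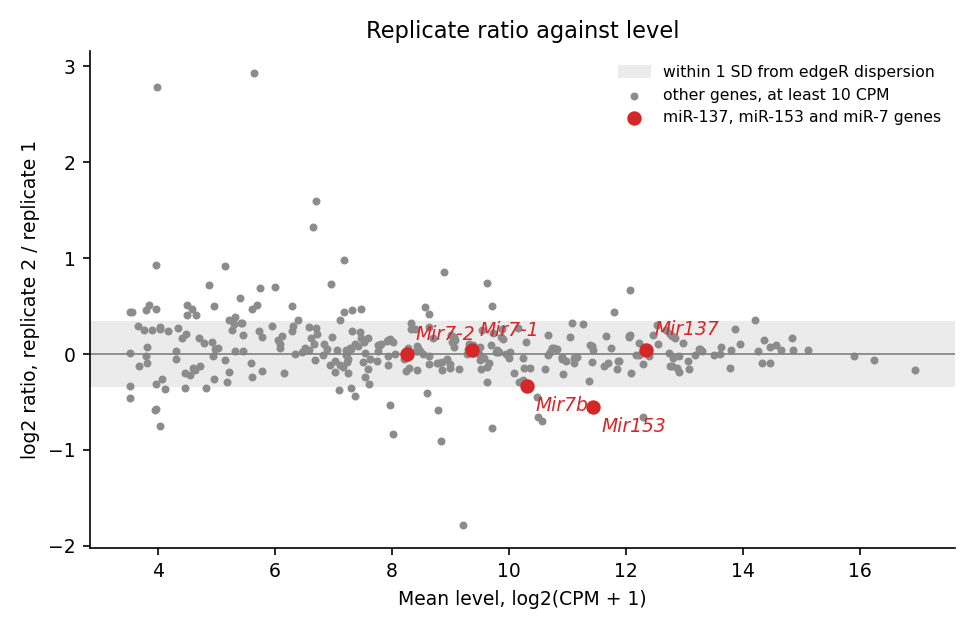
Log2 ratio of replicate 2 to replicate 1 against mean level for 321 genes with at least 10 CPM. The grey band is 1 SD of the ratio (0.33) from the common dispersion. Mir137, Mir7-1 and Mir7-2 lie near 0, Mir7b lies at the lower edge of the band and Mir153 below it at -0.55.

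Markers of other tissue components differed between the pools too. The replicate ratios of Mir153 and Mir7b are given beside them here, and the markers' part in these ratios was not tested. Counts of genes that passed Fisher's exact test are to be read against the 12.5% of all 511 genes that passed as lower in replicate 2 and the 20.2% that passed as higher. Genes of a list can share a transcript, so counts within a list are not counts of independent genes. Epithelial genes were lower in replicate 2 in 5 of 7 cases and higher in 2, all by Fisher's exact test. The 5 lower ones were Mir200a, Mir200b, Mir200c, Mir141 and Mir429, and the 2 higher ones were Mir203 and Mir205. The 7 genes had a median log2 ratio of -0.65 and sums of 13628 CPM and 10008 CPM in replicates 1 and 2. Mir429 stood at 5024 ± 1579 CPM (SD, n = 2) with a ratio of -0.65, and Mir203, a skin epithelium miRNA, at 2158 ± 343.3 CPM with 0.33. Mesenchymal and mural genes were higher in 7 of 7, where 56.2% of all 511 genes tested lay above 0, and 6 of the 7 passed the test. They had a median of 0.47 and sums of 13294 and 16134 CPM, led by Mir143 and Mir140. The endothelial gene Mir126a stood at 16564 and 21180 CPM. Erythroid genes summed to 317.8 and 238.3 CPM, with Mir451a at -0.53 and Mir144 at 0.51. Leukocyte genes summed to 372.7 and 452.1 CPM, led by Mir155 and Mir223, and Mir142b was at 0 in both. Genes of the Hox clusters, used behind the forebrain, summed to 178.6 and 168.7 CPM, led by Mir10a and Mir10b, and none of 4 tested passed. In such bulk tissue fewer cells of a type and less RNA per cell cannot be told apart.

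Among other neural miRNA genes, 15 had a replicate ratio above 0 and 3 below it, where 56.2% of all 511 genes tested lay above 0. Of 22 listed, 18 had a row and were tested. By Fisher's exact test 4 were higher in replicate 2, 1 was lower and 13 did not pass, beside 20.2% higher and 12.5% lower over all genes, with a median log2 ratio of 0.14 against 0.04. The genes that passed as higher were Mir204, Mir129-1, Mir129-2 and Mir128-1, and Mir132, a miRNA induced by neuronal activity, was lower at -0.24. Mir134, a dendritic miRNA, led the list at 1624 ± 5.80 CPM (SD, n = 2) with a ratio of -0.0073, and Mir204, which is abundant in choroid plexus and eye pigment epithelium, followed at 784.9 ± 279.1 CPM with 0.74. The 18 genes summed to 4262 and 4756 CPM in the 2 libraries, less than Mir137 alone in each library. Many of the listed genes, among them the miR-9, miR-124 and miR-128 genes, have several copies in the genome, so their assigned reads may leave out much of the mature RNA.

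Genes known from endocrine and secretory cells were also read. Of 14 listed, 13 had a row and were tested, 6 passed as lower in replicate 2 and 1 as higher, beside 12.5% and 20.2% over all genes, with a median log2 ratio of -0.15. This list and the neural one hold Mir9-2 and Mir9-3 in common. Mir375, an abundant miRNA of pancreatic islets and pituitary, was lower at -0.41, with 442.2 CPM in the first library and 332.5 CPM in the second. Mir183 was lower at -0.45 and Mir182 at -0.28, both from a cluster known in sensory cells. The gene that passed as higher was Mir26a-2, at 0.38 (adjusted p = 0.044 by Fisher's exact test). Of the 13 tested, 5 had a ratio above 0 and 8 below it, where 56.2% of all 511 genes lay above 0. Mir335, carried by the imprinted gene Mest, was the most abundant of the list at 77130 ± 2497 CPM (SD, n = 2), with a ratio of -0.07. These genes are given beside Mir153 and Mir7b as values, and no test set them against each other.

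**Figure D4:**
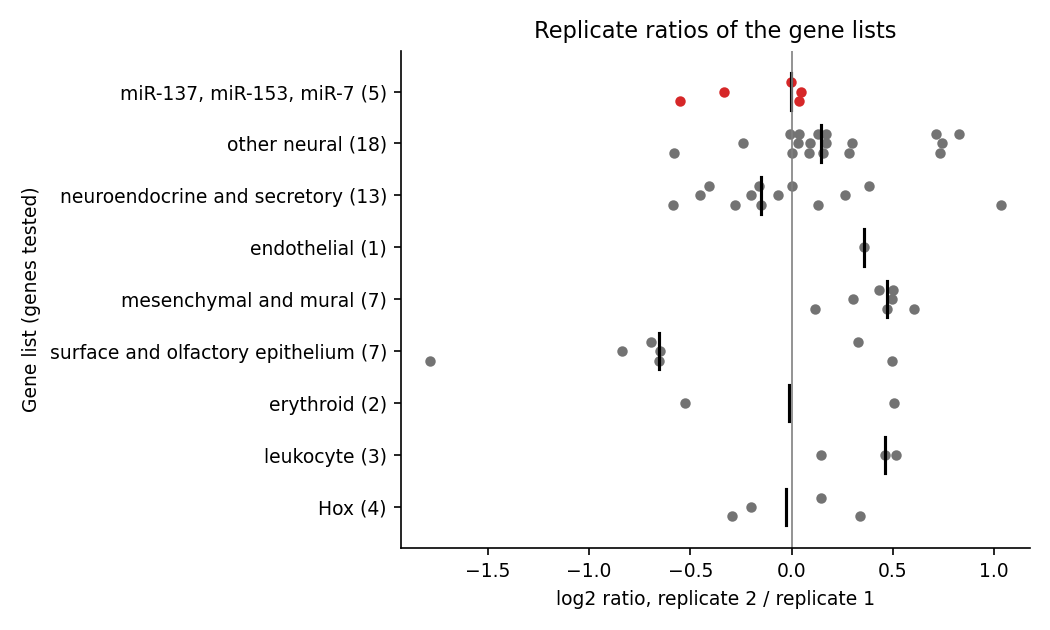
Log2 ratio of replicate 2 to replicate 1 for each gene tested, by list, with the number of genes in brackets. Points are genes, spread vertically for sight alone, and black bars are medians. Mir153 (-0.55) and Mir7b (-0.33) lie left of 0, and Mir137, Mir7-1 and Mir7-2 lie near it. Of 7 epithelial genes 5 lie to the left, and 7 of 7 mesenchymal and mural genes to the right. Genes of a list can share a transcript and are not independent points. Of all 511 genes tested 56.2% lie to the right. Endocrine, erythroid and Hox genes lie on both sides.

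The genes closest to each of the 5 in both libraries were found by the Euclidean distance in log2(CPM + 1) over 2 libraries. Mir1983, Mir298 and Mir382 lay nearest to Mir137, at distances of 0.0091, 0.084 and 0.13. For Mir7b they were Mir300, Mir598 and Mir674, at 0.087 to 0.16, with ratios of -0.27, -0.15 and -0.14. Genes chosen as close in both libraries have similar ratios largely through that choice. Mir186, Mir320 and Mir676 lay nearest to Mir7-1, and Mir679, Mir148a and Mir148b to Mir7-2. Mir153 had no such close neighbour. Its nearest were Mir182 at 0.21, Mir425 at 0.33 and Mirlet7d at 0.42, with ratios of -0.28, -0.08 and 0.04 that were all nearer to 0 than its own.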

How the data were processed

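MicroRNA-seq counts of 2 replicates of embryonic day 12.5 mouse forebrain were used. Per the file headers of the deposited notes, the authors derived raw read counts per gene from mm10 alignments with annotation M4. The aligner, counter, trimming and library chemistry are not stated in these notes or the labels. Gene-strand counts were used as deposited, where the both-strand count equals the sum of both strands for every gene. The 4 rows that name no gene were left out of library sizes. The libraries held 11104730 and 11154304 reads in all.

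Symbols, positions and hairpins came from GENCODE M21 on the same build, in which 1894 of 1973 identifiers matched. Each gene with 10 or more reads summed over the libraries was compared by Fisher's exact test (SciPy 1.17.1). Dispersion and TMM factors came from edgeR 4.0.16 and size factors from DESeq2 1.42.0. With 1 group, edgeR could fit no contrast. Fisher's test and the dispersion estimate were each tested on simulated data. Fisher's p-values cover counting error between 2 libraries and no spread between replicates.

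The genes and lists were chosen with earlier results of these data known. Named were the 5 genes, miRNA genes within 10 kb, the 3 nearest in level, the 2 highest of each list and genes sharing a seed. Other genes were named after their values were seen. Alternatives covered strand, scaling, pseudocount, minimum reads, fold, stretch length and leaving out a replicate.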

Additional observations from a re-analysis of the deposited data

Results flagged for a closer look

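Reads that match several places numbered 4213961 in replicate 1 and 4224434 in replicate 2, and stood outside the gene counts. They were picked out because they exceed what a count of 0 allows, with no control sample to set them against, which any such total would do. How many of them were miR-7a-5p was not analysed here.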

How the results depend on the processing

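Of 40 recomputed replicate ratios, 36 kept their direction and their side of the threshold. The pseudocount settings could change neither, and the settings of minimum reads could not change the direction. Of 25 levels recomputed from both replicates, 14 moved by no more than the replicate SD. That SD differs widely between the genes, so the count is no measure of stability. Without Mir99a in the library size, Mir153 at 3184 CPM and Mir7b at 1444 CPM stayed within their SDs. Those SDs were large, at 745.1 and 205.2 CPM. Per 1000000 of all reads of the library, levels were 2042 CPM for Mir137, 1088 for Mir153, 493.9 for Mir7b, 256.9 for Mir7-1 and 119.7 for Mir7-2, since the divisor is larger. Without Mir99a in the library size, Mir137 stood at 5959 CPM, Mir7-1 at 749.5 and Mir7-2 at 349.3. With the both-strand column they stood at 5065, 637.0 and 296.8 CPM. The order of the 5 genes was the same in each. The log2 ratio of Mir137 lost its call with TMM factors (0.00095), DESeq2 size factors (0.02110) and without Mir99a (0.01981). The ratio of Mir7-1, which was not called, turned to -0.0057 with TMM factors. Counting the calls under these scalings was added after seeing the data, and 2 of 5 genes passed in place of 3. Ratios ran from -0.597 to -0.552 for Mir153 and from -0.376 to -0.331 for Mir7b, with both called under every alternative run. Leaving out a replicate gave levels of 5127 to 5286 CPM for Mir137, 2251 to 3304 for Mir153, 1115 to 1405 for Mir7b, 646.4 to 663.4 for Mir7-1 and 304.7 to 305.5 for Mir7-2. It gave a share of 0.962% to 1.08% for the 5 genes. With 2 replicates such values cannot differ from the mean by more than the SD, so they say nothing of stability. No paired analysis was possible because the study has 1 group. The 2 libraries limit every statement on spread. The fewest reads of any of the 5 genes were 1324. Depth still bears on which small differences pass Fisher's exact test. Mir137, 3.10% higher in replicate 2 with 22218 and 23245 reads, passed at the main setting. Mir7-1, 2.63% higher with 2801 and 2917 reads, did not.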
